A study of Mus musculus with 2 samples.

Results

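Inmt and Penk fibroblasts are a state of the collagen-producing cells of the mouse thymus, and 244 such cells were found among 11774 cells that passed the filters. Cells needed at least 500 genes, at least 1000 UMIs (unique molecular identifiers, each tagging 1 captured transcript) and at most 10% mitochondrial UMIs. Among these, a collagen gate kept cells with at least 20 UMIs of Col1a1, Col1a2 and Col3a1 per 10000 and none of Epcam, an epithelial marker, or Ptprc, which encodes CD45. The gate held 2625 cells. Each was scored by how many of 5 genes it expressed in each of 4 sets, and a cell belonged to the Inmt/Penk state with at least 3 of Inmt, Cpxm2, Penk, C7 and Srpx and more of these than of any other set. The other sets were Pi16, Smpd3, Ptx3, Anxa3 and Mfap5 (Pi16 state, 630 cells), Cxcl14, Gpm6b, Pi15, Mmp9 and Col15a1 (Cxcl14/Col15a1 state, 349 cells), and Sod3, Cpe, Postn, Serpine2 and Rgs16 (Postn state, 368 cells), assigned in the same way. These genes had been picked from earlier results of the same libraries, so their levels describe the sorting and test nothing.

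The cells came from 2 droplet libraries of thymic stroma, collected without CD45-positive blood cells from mice of the E2F_M11 genotype. E2F_M11 lacks 2 E2F binding sites of the proximal promoter of Foxn1, the regulator of thymic epithelium, removed with CRISPR-Cas9. Both libraries, and so all 4 states, carried this deletion, and no wild type was analysed here. The labels give neither age nor sex, nor whether different animals were used for the 2 libraries.

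Fibroblasts of the thymus make the capsule, the septa and the sheaths of vessels, and supply matrix and growth factors to the epithelium around them. INMT is a methyltransferase that puts methyl groups on tryptamine and other indole amines. Penk encodes proenkephalin, the precursor that is cut into enkephalin opioid peptides. C7 is a component of the membrane attack complex of complement, Cpxm2 encodes a carboxypeptidase-like secreted protein without known enzyme activity, and Srpx encodes a secreted protein with sushi repeats.

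The promoter windows of C7 and Cpxm2 are shown because these genes sorted the cells together. Each covers 250 bases before the annotated start in the RefSeq table for GRCm38.p6, on the minus strand at chr15:5063774-5064023 for C7 and chr7:132154742-132154991 for Cpxm2. Capitals mark CANNTG, the E-box, which basic helix-loop-helix factors such as TWIST1 and TCF21 recognise.
C7: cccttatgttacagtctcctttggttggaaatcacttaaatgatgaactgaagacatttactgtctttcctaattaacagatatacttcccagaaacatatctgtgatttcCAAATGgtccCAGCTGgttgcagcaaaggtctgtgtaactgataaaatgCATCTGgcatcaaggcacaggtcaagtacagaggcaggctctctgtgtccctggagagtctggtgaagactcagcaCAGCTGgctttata
Cpxm2: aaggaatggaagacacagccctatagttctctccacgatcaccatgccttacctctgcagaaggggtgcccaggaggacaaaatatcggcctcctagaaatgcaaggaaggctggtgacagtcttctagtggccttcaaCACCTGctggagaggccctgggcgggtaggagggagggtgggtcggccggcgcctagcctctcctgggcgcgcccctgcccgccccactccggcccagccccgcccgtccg
A search of both strands found CANNTG at 4 places in the C7 window and at 1 in the Cpxm2 window, and TATAAA at 1 place in C7 and 0 in Cpxm2. At least 1 CANNTG stood in 66.2% of 32851 promoter windows of this length and at least 1 TATAAA in 12.4%. The table held windows for 4 of the 5 genes.

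The files gave 5110 barcodes with 41075328 UMIs for library 1 and 19163 barcodes with 42583831 UMIs for library 2, and 3588 and 8186 of these barcodes passed the filters. The median passing cell had 8727 UMIs in library 1 and 1874 UMIs in library 2, so library 2 was shallower per cell. The libraries shared 30 barcode sequences and none among the cells of the collagen gate. Levels are given as CPM, a gene’s UMIs per 1000000 UMIs of the cells summed in that state and library. Foxn1 was found at 1.75 and 1.86 CPM in Inmt/Penk cells, against 65.1 and 33.3 CPM in the passing cells outside the gate. The 3′ tags lie away from the promoter, so these values are no check of the deletion.

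Library 1 gave 152 Inmt/Penk cells and library 2 gave 92. They made up 13.9% of the gate in the first (exact 95% interval 11.9 to 16.1) and 6.0% in the second (4.86 to 7.31), a mean of 9.96% ± 5.60 (SD, n = 2). The intervals here and below cover counting error only, and those of the 2 libraries did not overlap. The collagen gate was itself deeper in library 1, with a median of 8709.5 UMIs per cell, than in library 2, with 1933 UMIs. When each gate cell was thinned to 2000 UMIs before sorting, the shares were 7.10% of 1056 cells (5.63 to 8.82) in library 1 and 6.62% of 740 cells (4.94 to 8.66) in library 2, a mean of 6.86% ± 0.340 (SD, n = 2). Thinning left out 36 and 793 shallower gate cells. Of the Inmt/Penk cells that reached 2000 UMIs, 67 of 148 in library 1 and 43 of 82 in library 2 stayed in the state. Results given after thinning thus rest on a partly different group, of 75 and 49 cells. At matched depth the intervals overlapped almost wholly, and the state was the least frequent of the 4 in both libraries with and without thinning. That order was not kept with a collagen gate at 50 per 10000, which left 133 Inmt/Penk cells, against 86 Cxcl14/Col15a1 and 87 Postn cells in library 1, and 64 Inmt/Penk cells, against 59 and 52 in library 2. In a further setting, cells with at least 2 detected thymocyte, B cell, macrophage and dendritic, endothelial, mesothelial or epithelial markers were left out. Cells above 3 times the median UMIs of their state were left out too. This setting, named without cells of mixed lineage, kept 516 of 1092 gate cells in library 1 and 256 of 1533 in library 2. Thymocyte markers alone were found in 60.5% and 82.6% of Inmt/Penk cells, and whether the cells left out were doublets was not tested. In this setting library 2 had 33 Inmt/Penk and 29 Postn cells.

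**Figure D1:**
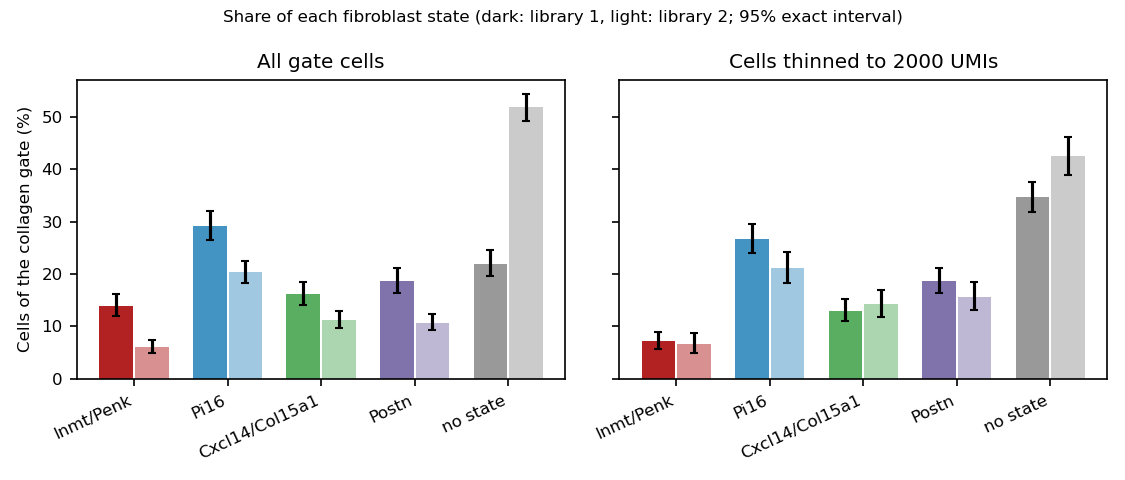
Share of the cells of the collagen gate (vertical axis, %) in each fibroblast state, with all cells at left and with cells thinned to 2000 UMIs at right. Dark bars are library 1, light bars library 2, and lines are exact 95% intervals. The Inmt/Penk bars stand at 13.9% and 6.0% at left and at 7.10% and 6.62% at right.

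The member cells had a median of 7652.5 UMIs and 2790 genes in library 1, and 4974.5 UMIs and 2081.5 genes in library 2. Their mitochondrial share was 3.14% and 3.93%. In library 2 the median Inmt/Penk cell was thus deeper than the median Pi16 cell, which had 2396 UMIs, and close to the Cxcl14/Col15a1 and Postn cells with 5163.5 and 4715.5 UMIs. In library 1 the order differed, with 11261 UMIs in Pi16 cells, 7648 in Cxcl14/Col15a1 cells and 8319.5 in Postn cells.

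Some members lay close to the limit of the rule. In library 1, 41 members expressed 3 of the 5 genes, 68 expressed 4 and 43 expressed all 5. In library 2 these numbers were 33, 39 and 20. The summed level of the 5 genes was 1935, 2044 and 3080 CPM for 3, 4 and 5 genes in library 1, and 1685, 2142 and 3100 CPM in library 2. Just inside the rule, 84 members of library 1 (55.3%) and 44 of library 2 (47.8%) led the next set by a single gene. Just outside it, 63 and 49 cells had at least 3 of the genes but tied with another set, and their summed level was 1506 and 1531 CPM. Another 50 and 27 cells had at least 3 of the genes but more of another set, at 858 and 1030 CPM. Members with 3 of the genes thus had a summed level modestly above that of the tied cells. A further 2 and 29 cells had 2 of the genes and fewer of each other set, at 687 and 1779 CPM. In library 2 that level was above the 1685 CPM of members with 3 genes. The 29 cells had a median of 1343 UMIs, against 2716 UMIs in those members.

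The 5 sorting genes were all far above the other states in the summed profiles, as the rule favours. Not every member expressed each gene, and Inmt was detected in only 54.6% and 69.6% of Inmt/Penk cells of libraries 1 and 2. Penk was detected in 92.8% and 91.3% of them, Cpxm2 in 82.9% and 79.3%, C7 in 86.2% and 63.0% and Srpx in 84.9% and 82.6%. Inmt had 477 and 594 CPM in Inmt/Penk cells of libraries 1 and 2, against 11.4 and 32.2 CPM in Pi16 cells, 16 and 11.4 CPM in Cxcl14/Col15a1 cells and 10.4 and 15.7 CPM in Postn cells. Penk had 580 and 586 CPM in Inmt/Penk cells, against 54.8 and 93.1 CPM in Pi16 cells, 80.6 and 70.6 CPM in Cxcl14/Col15a1 cells and 32.4 and 49.4 CPM in Postn cells. C7 was the gene that differed most between the libraries, with 490 and 251 CPM in Inmt/Penk cells, against 75.3 and 116 CPM in Pi16 cells and 20.5 to 30.6 CPM in the other 2 states. Cpxm2 had 441 and 473 CPM in Inmt/Penk cells and 14.7 to 49.3 CPM in the others. Srpx stood out least, with 358 and 441 CPM in Inmt/Penk cells, against 38.5 and 58.9 CPM in Pi16 cells, 148 and 107 CPM in Cxcl14/Col15a1 cells and 74.8 and 62.8 CPM in Postn cells. In GRCm38 coordinates Inmt (ENSMUSG00000003477) lies on chromosome 6 from 55170626 to 55175043, Penk (ENSMUSG00000045573) on chromosome 4 from 4133531 to 4138819 and C7 (ENSMUSG00000079105) on chromosome 15 from 4988762 to 5063740. Cpxm2 (ENSMUSG00000030862) lies on chromosome 7 from 132032687 to 132154739 and Srpx (ENSMUSG00000090084) on chromosome X from 10037977 to 10117709, and all 5 are on the minus strand.

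**Figure D2:**
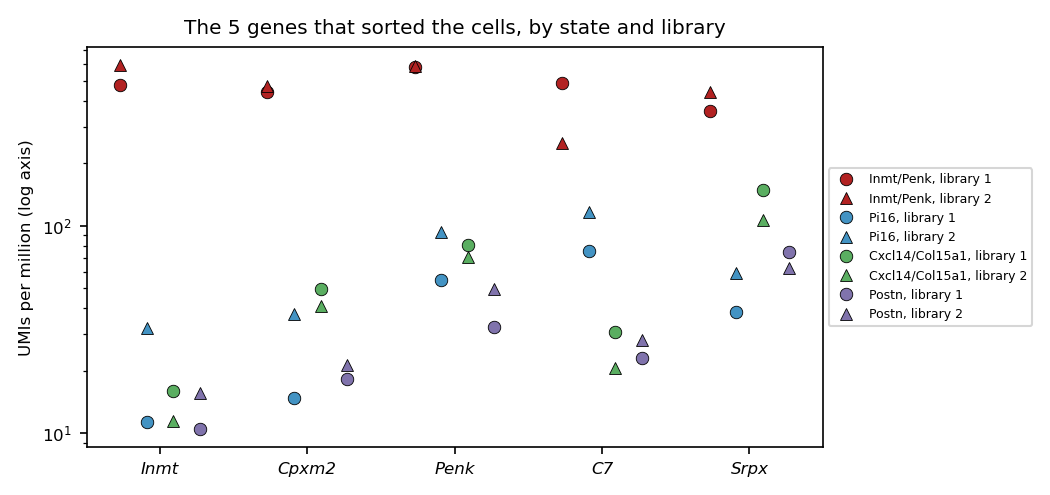
Level of the 5 sorting genes (vertical axis, CPM on a log axis) in the summed cells of each state, with circles for library 1 and triangles for library 2. For each gene both Inmt/Penk points lie above all others, which the sorting itself brings about. The pair lies furthest apart for C7, at 490 and 251.

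Some sorting genes of the other states, picked after their values were seen, were expressed in Inmt/Penk cells as well. Col15a1, a basement membrane zone collagen, had 956 and 1048 CPM in Inmt/Penk cells, against 78.1 and 173 CPM in Pi16 cells, 1594 and 1759 CPM in Cxcl14/Col15a1 cells and 1187 and 1153 CPM in Postn cells. Serpine2, a protease inhibitor, had 860 and 886 CPM, against 116 and 167 CPM in Pi16 cells, 2182 and 2251 CPM in Cxcl14/Col15a1 cells and 3590 and 3256 CPM in Postn cells. Mfap5, a microfibril protein, had 419 and 458 CPM in Inmt/Penk cells, against 2712 and 2573 CPM in Pi16 cells, 171 and 99.1 CPM in Cxcl14/Col15a1 cells and 71.5 and 104 CPM in Postn cells. Postn had 261 and 50.3 CPM in Inmt/Penk cells, below each other state in the same library. Mmp9, Rgs16 and Ptx3 were low in them, between 0 and 13.0 CPM.

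The fibroblast identity held in both libraries. The 9 general fibroblast markers, among them Pdgfra, Dcn and Lum, summed to 27139 and 25076 CPM in Inmt/Penk cells, against 14089 and 15643 CPM in Pi16 cells, 21774 and 21489 CPM in Cxcl14/Col15a1 cells and 16572 and 17559 CPM in Postn cells. All 9 were detected, and Dcn alone made up 19820 and 18942 CPM of the Inmt/Penk sums. Pdgfra also had its highest levels in Inmt/Penk cells, with 771 and 711 CPM, next to 607 and 608 CPM in Cxcl14/Col15a1 cells. Pdgfrb, at 189 and 136 CPM, was lower than in Cxcl14/Col15a1 cells, at 269 and 231 CPM, and Postn cells, at 291 and 325 CPM. Dpt, at 1023 and 921 CPM, was lower than in Pi16 cells, at 1447 and 1387 CPM. The levels of Col6a1 and Col6a2 overlapped those of each other state. Lum had 1411 and 1597 CPM in Inmt/Penk cells, against 1613 and 1992 CPM in Cxcl14/Col15a1 cells. Markers of other cell types were low. The 8 pericyte and smooth muscle markers summed to 28.9 and 59.6 CPM in Inmt/Penk cells, with Mcam at 0, against 422 and 553 CPM in Postn cells. The 6 mesothelial markers summed to 44.6 and 26.1 CPM, with Upk3b, Lrrn4 and Upk1b at 0, against 484 and 183 CPM in Pi16 cells. Wt1 made up 43.7 and 20.5 CPM of the Inmt/Penk sums. The 6 endothelial markers gave 13.1 and 9.31 CPM, with Egfl7 and Emcn at 0, the 5 Schwann cell markers 14.9 and 9.31 CPM with Sox10 at 0, and the 4 adipocyte markers 0.875 and 0 CPM. Thymocyte markers were the most abundant of the foreign sets, at 191 and 393 CPM in Inmt/Penk cells, and all 10 were detected. They were at 115 to 155 CPM in the other states of library 1 and at 581 to 978 CPM in those of library 2, so Inmt/Penk cells had the highest sum of the 4 states in library 1 and the lowest in library 2. Erythroid markers were at 10.5 and 50.3 CPM in Inmt/Penk cells, and reached 3381 CPM in Postn cells of library 2. The part of these foreign transcripts in the values below was not tested.

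UMIs were summed per library and state, which gave 1143289 and 537211 UMIs for Inmt/Penk cells, and these sums were set against those of the other states with edgeR's quasi-likelihood test and the library as a block. Genes with a Benjamini-Hochberg adjusted p (taken over the whole fit) of at most 0.05 count as called. A call says that a difference between states was large against the variation of such differences between the libraries. The overall difference between the libraries is removed by the block. Since the rule sorted these same cells into the states, a call does not show independently that the states differ. The folds are therefore a description of the sorted cells, and the sorting and gate genes are left out of each count. Against the mean of the other 3 states, 972 of 10517 genes were called (9.24%), of which 636 were higher in Inmt/Penk cells (6.05%) and 336 lower (3.19%). The median log2 fold over all genes was -0.0037, so the profiles were centred on each other. All 4 comparisons use the same 2 Inmt/Penk sums.

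The 12 genes named as higher in Inmt/Penk cells than in each of the other states were headed by secreted proteins. Sfrp1, a secreted antagonist that binds WNT proteins, had 812 and 633 CPM in Inmt/Penk cells, against 84.3 and 105 CPM in Pi16 cells, 41.7 and 41.0 CPM in Cxcl14/Col15a1 cells and 34.6 and 37.0 CPM in Postn cells. Its log2 fold was 3.83 against the mean (SE 0.119), and 2.88, 4.23 and 4.39 against the Pi16, Cxcl14/Col15a1 and Postn states. Both Inmt/Penk values lay far above the 6 others. Masp1, the serine protease that starts the lectin pathway of complement, had 128 and 175 CPM in Inmt/Penk cells, against 1.03 and 4.79 CPM in Pi16 cells, 41.0 and 37.6 CPM in Cxcl14/Col15a1 cells and 20.9 and 30.3 CPM in Postn cells (log2 fold 3.51 against the mean, SE 0.199). Its smallest difference was from the Cxcl14/Col15a1 state, with a log2 fold of 1.98. Gdf10, a ligand of the TGF-beta superfamily, had 297 and 261 CPM in Inmt/Penk cells, against 107 and 40.4 CPM in Pi16 cells, 12.5 and 7.97 CPM in Cxcl14/Col15a1 cells and 25.3 and 19.1 CPM in Postn cells (log2 fold 3.46, SE 0.187). For Gdf10 the Pi16 state came nearest, at a log2 fold of 1.82 in the fit, 1.36 in library 1 and 2.59 in library 2.

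The other genes of this kind included enzymes, receptors and signalling proteins. Fmo2, a flavin-containing monooxygenase of drug metabolism, had 206 and 285 CPM in Inmt/Penk cells, against 17.8 and 28.8 CPM in Pi16 cells, 50.7 and 42.1 CPM in Cxcl14/Col15a1 cells and 41.2 and 25.8 CPM in Postn cells (log2 fold 2.85, SE 0.168). Itm2a, an integral membrane protein, had 367 and 439 CPM in Inmt/Penk cells and between 39.3 and 119 CPM in the others (log2 fold 2.35, SE 0.14). Lpar4, a receptor for lysophosphatidic acid, had 130 and 114 CPM in Inmt/Penk cells and between 14.6 and 42.1 CPM in the others (log2 fold 2.32, SE 0.16). For these 3 genes both Inmt/Penk sums lay above the 6 others, as they did for 6.28% of all genes tested, and the genes were named for being high against each state. Gnai1, an inhibitory G protein subunit of the kind through which opioid receptors signal, had 62.1 and 68.9 CPM in Inmt/Penk cells and at most 19.2 CPM elsewhere (log2 fold 2.41, SE 0.24). Cacna1g, a T-type calcium channel, had 49.9 and 40.9 CPM in Inmt/Penk cells and at most 9.73 CPM elsewhere. Shisa3, of the Shisa family of membrane proteins, had 49.0 and 48.4 CPM in Inmt/Penk cells and at most 16.7 CPM elsewhere (log2 fold 2.83, SE 0.29). Enpp1, which makes pyrophosphate from ATP outside the cell, had 35.0 and 57.7 CPM in Inmt/Penk cells and at most 15.3 CPM elsewhere. Fgl2, a fibrinogen-like protein, had 48.1 and 59.6 CPM and Fam180a 27.1 and 42.8 CPM in Inmt/Penk cells, against at most 14.6 and 11.2 CPM elsewhere.

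For 4 of these genes, which rest on 54 to 87 UMIs, the fold depended on the library. Cacna1g had a log2 fold of 3.11 in the fit, 3.10 in library 1 and 2.45 in library 2. Enpp1 had 2.86 in the fit, 2.17 in library 1 and 3.3 in library 2. Fgl2 had 2.49 in the fit, 1.98 in library 1 and 3.23 in library 2, and Fam180a 3.08 in the fit, 2.27 in library 1 and 3.51 in library 2. The direction was the same in both libraries, and the Fgl2 call was lost after thinning to 2000 UMIs.

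**Figure D3:**
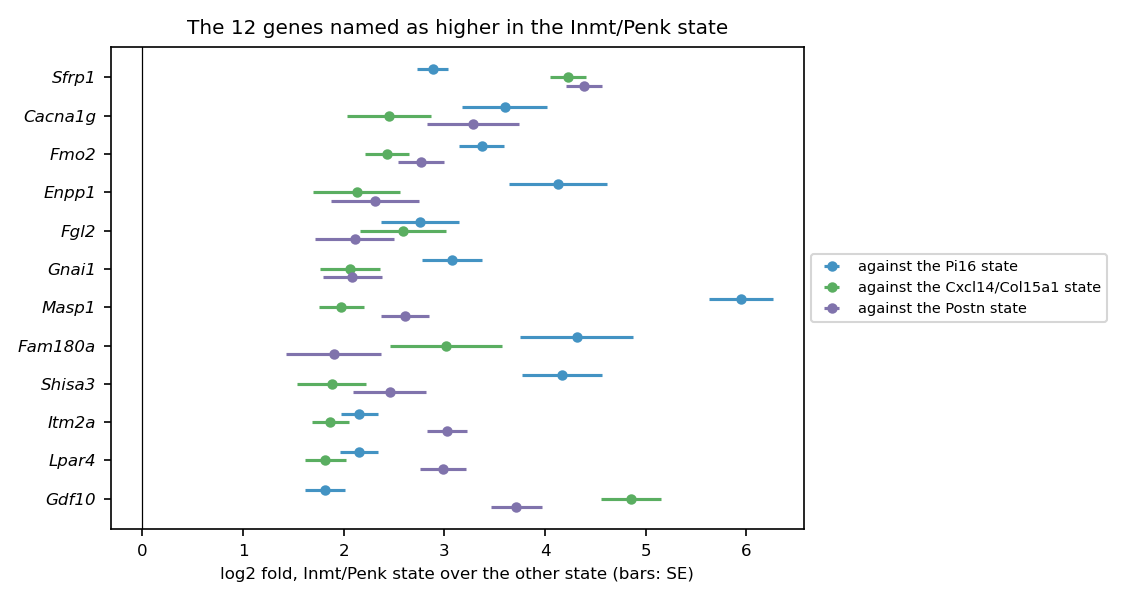
Log2 fold of the Inmt/Penk state over each of the other states (horizontal axis) for the 12 genes named as higher, with points for the edgeR estimate and bars for its SE. All points lie to the right of 0, and the nearest state differs by gene, for example the Pi16 state for Gdf10 at 1.82 (1.36 and 2.59 in the single libraries) and the Cxcl14/Col15a1 state for Masp1 at 1.98.

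The 12 genes named as lower were picked for the largest fitted folds out of 248 that met the other conditions, and they were sparse in Inmt/Penk cells. No UMI of 9 of the 12 was found in the 244 cells, so their folds are lower bounds, computed against 3 counts over both libraries, which is 1.79 CPM. Fcgr2b, an inhibitory receptor for antibody Fc parts, had 52.1 and 44.4 CPM in Cxcl14/Col15a1 cells and 40.1 and 40.4 CPM in Postn cells, which makes it at least 27.6-fold and 22.5-fold lower in Inmt/Penk cells. Extl1, a glycosyltransferase of heparan sulfate synthesis, was at least 19.8-fold lower in Inmt/Penk cells than in Cxcl14/Col15a1 cells and at least 16.7-fold lower than in Postn cells. Pcdh15, a protocadherin, was at least 15-fold and 15.3-fold lower than in the same states. Pf4, a platelet chemokine gene, had no UMI in Inmt/Penk cells, against 34.0 and 17.1 CPM in Cxcl14/Col15a1 cells and 18.1 and 12.3 CPM in Postn cells. These 4 genes and the noncoding 2900052N01Rik, which was at least 21.5-fold lower than in Postn cells, lay below 1.79 CPM in the summed Pi16 cells and were not called against that state, so no difference from it was detectable at this depth. Mrgprg, a G protein-coupled receptor, was called against the Pi16 state only, where it had 705 CPM in library 1 and 23.3 CPM in library 2. Gcnt2, a branching enzyme of cell surface glycans, was at least 10.3-fold lower than in Postn cells, Ccdc3, a secreted coiled-coil protein, at least 6.82-fold and the noncoding 2310001H17Rik at least 4.75-fold, and none of these 3 was called against the Cxcl14/Col15a1 state. Gm49708, Ackr2 and Egln3 were found with 3, 1 and 2 UMIs and were called against each state. Ackr2, a scavenging receptor for inflammatory chemokines, had 0.875 and 0 CPM in Inmt/Penk cells, against 30.3 and 18.5 CPM in Pi16 cells. Egln3, a prolyl hydroxylase of the hypoxia response, had 0.875 and 1.86 CPM in Inmt/Penk cells, against 32.4 and 40.4 CPM in Postn cells, and Gm49708 had 1.75 and 1.86 CPM, against 37.4 and 15.7 CPM in Postn cells. The calls against the mean held under each alternative that tested them for Ackr2 and Egln3, and were lost under at least 1 for the other genes, down to 4 of 8 kept for Gcnt2 and for Ccdc3.

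The pairwise comparisons add 4 genes in each direction and pass over genes already named, so a gene given for 1 pair can differ as much in another. Against the Pi16 state, 1513 of 10517 genes were called (14.4%), 739 higher (7.03%) and 774 lower (7.36%) in Inmt/Penk cells. The nonagouti gene a, whose product blocks melanocortin receptors, had 34.1 and 80.0 CPM in Inmt/Penk cells, against 0.517 and 0.684 CPM in Pi16 cells, and had a log2 fold of 6.13 in the fit, 4.23 in library 1 and 5.29 in library 2. Adcyap1r1, the receptor of the neuropeptide PACAP, had 91.8 and 106 CPM in Inmt/Penk cells, against 2.84 and 2.74 CPM in Pi16 cells (log2 fold 4.98). Pappa, a protease that cuts IGF-binding proteins, had 249 and 186 CPM, against 6.72 and 6.16 CPM in Pi16 cells (log2 fold 4.98). Lsamp, a cell adhesion protein of neural tissue, had 205 and 253 CPM in Inmt/Penk cells, against 4.66 and 11.6 CPM in Pi16 cells, with a log2 fold of 4.95 in the fit, 5.03 in library 1 and 4.24 in library 2. Lsamp was at 252 and 233 CPM in Cxcl14/Col15a1 cells and 208 and 167 CPM in Postn cells, where its log2 folds of -0.01 and 0.28 were not called. Adcyap1r1 likewise had a log2 fold of 0.05 against the Cxcl14/Col15a1 state, not called. For all 4 genes the log2 fold was larger against the Pi16 state than against either of the others.

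Among the genes named as lower in Inmt/Penk than in Pi16 cells, Upk3b, a uroplakin of mesothelium, had no UMI in Inmt/Penk cells, against 126 and 31.5 CPM in Pi16 cells. Gpm6a, a membrane glycoprotein also known from mesothelium, had none either, against 41.9 and 24.6 CPM in Pi16 cells, and neither had Akr1c18, a steroid dehydrogenase, against 23.3 and 34.9 CPM. Krtdap, a keratinocyte protein, had 1 UMI in Inmt/Penk cells, against 41.1 and 71.2 CPM in Pi16 cells. With DESeq2 the calls of Upk3b, Gpm6a and Akr1c18 were lost. The summed mesothelial markers were 44.6 and 26.1 CPM in Inmt/Penk cells, against 484 and 183 CPM in Pi16 cells, and Upk3b is among them. Their part in these differences was not tested.

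Against the Cxcl14/Col15a1 state, 1146 genes were called (10.9%), 651 higher (6.19%) and 495 lower (4.71%) in Inmt/Penk cells. Sfrp2, a WNT-binding protein related to Sfrp1, had 177 and 168 CPM in Inmt/Penk cells, against 7.64 and 4.56 CPM in Cxcl14/Col15a1 cells (log2 fold 4.83). Angptl1, a secreted angiopoietin-like protein, had 259 and 130 CPM, against 4.86 and 11.4 CPM in Cxcl14/Col15a1 cells, with a log2 fold of 4.90 in the fit, 5.46 in library 1 and 3.47 in library 2. Hmcn2, a large matrix protein, had 56.9 and 48.4 CPM, against 0.695 and 3.42 CPM in Cxcl14/Col15a1 cells, with 4.98 in the fit, 4.87 in library 1 and 3.46 in library 2. Ccn5, a matricellular protein of the CCN family, had 35.0 and 42.8 CPM, against 1.39 and 1.14 CPM, with 4.91 in the fit, 3.78 in library 1 and 4.19 in library 2, and its call was lost after thinning. Sfrp2 was higher still in Pi16 cells, at 294 and 239 CPM, where the log2 fold of -0.72 was called. The genes named as lower had 1 or 2 UMIs in Inmt/Penk cells. Tspan15, a tetraspanin that partners the protease ADAM10, had 0 and 1.86 CPM in Inmt/Penk cells, against 88.2 and 105 CPM in Cxcl14/Col15a1 cells. Col6a4, a collagen VI chain, had 0.875 and 1.86 CPM, against 95.2 and 79.7 CPM, and Tenm4, a teneurin, 0 and 1.86 CPM, against 32.7 and 41.0 CPM. Adra2a, an adrenergic receptor, had 0.875 and 1.86 CPM in Inmt/Penk cells, against 87.6 and 41.0 CPM in Cxcl14/Col15a1 cells. All 4 were also low in Pi16 cells, at 0.259 to 4.40 CPM.

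Against the Postn state, 1559 genes were called (14.8%), 763 higher (7.25%) and 796 lower (7.57%) in Inmt/Penk cells. Genes named as higher encoded matrix and other secreted proteins. Ogn, the small proteoglycan osteoglycin, had 1431 and 1350 CPM in Inmt/Penk cells, against 107 and 77.4 CPM in Postn cells (log2 fold 3.93), and 1701 and 1850 CPM in Pi16 cells. Its log2 fold of 3.86 against the Cxcl14/Col15a1 state was of like size. Col14a1, a collagen that binds collagen fibrils, had 936 and 825 CPM, against 61.6 and 52.7 CPM in Postn cells (log2 fold 4.01). Its log2 fold of -0.21 against the Pi16 state was not called, and the 2 pairs of values overlapped. Pcolce2, which speeds the removal of procollagen ends, had 211 and 316 CPM in Inmt/Penk cells, against 8.25 and 33.7 CPM in Postn cells, with a log2 fold of 3.89 in the fit, 4.50 in library 1 and 3.22 in library 2. Sfrp4, another WNT-binding protein, had 42.0 and 50.3 CPM, against 1.10 and 5.61 CPM in Postn cells, with 4.10 in the fit, 4.17 in library 1 and 2.92 in library 2, and 1.86 with the call lost after thinning. Among the genes named as lower, Tnfsf8, the CD30 ligand, had no UMI in Inmt/Penk cells, against 34.1 and 55.0 CPM in Postn cells. Emcn, an endothelial sialomucin whose call was lost with DESeq2, was at least 16.9-fold lower and Atcay, a neural protein, at least 15.5-fold lower. Ltbp2, a protein of elastic microfibrils, had 0.875 and 0 CPM in Inmt/Penk cells, against 39.0 and 88.6 CPM in Postn cells. Endothelial markers, Emcn among them, summed to 13.1 and 9.31 CPM in Inmt/Penk cells, against 43.4 and 49.4 CPM in Postn cells, and pericyte markers to 28.9 and 59.6 CPM, against 422 and 553 CPM. Their part in these differences was not tested.

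**Figure D4:**
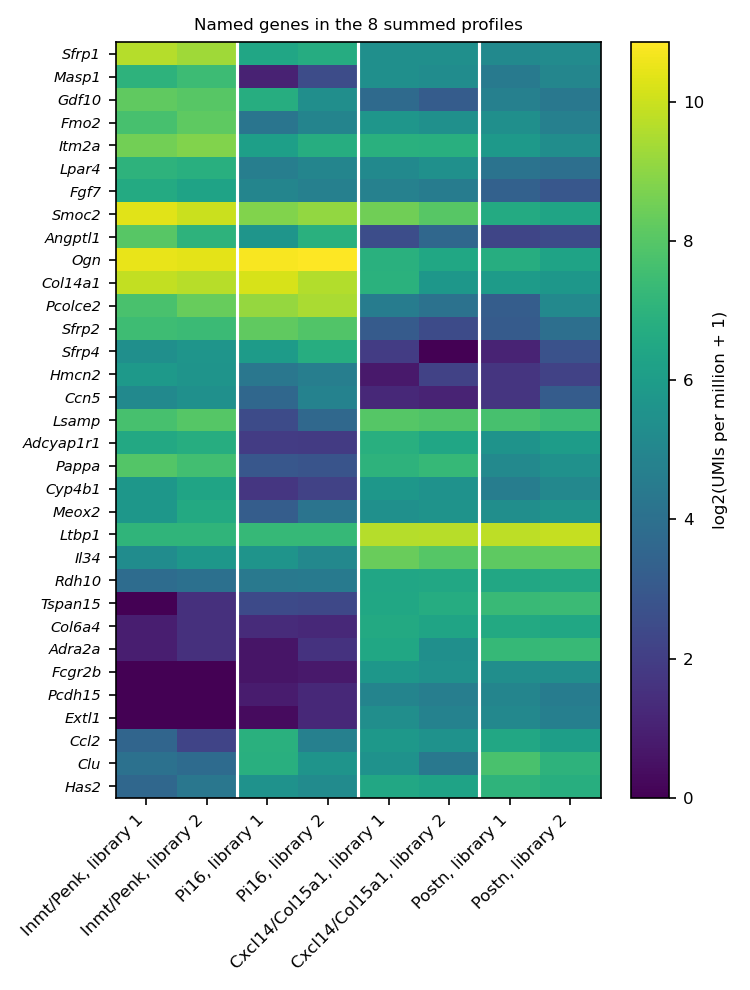
Level of named genes (rows, picked from those in the text after their values were seen) in the 8 summed profiles of 4 states and 2 libraries (columns), as log2 of CPM plus 1. Inmt/Penk columns share high values of Ogn, Col14a1 and Sfrp2 with the Pi16 columns and of Lsamp, Adcyap1r1 and Pappa with the Cxcl14/Col15a1 columns, while Fcgr2b, Pcdh15 and Extl1 are at 0 in both Inmt/Penk columns.

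The remaining values follow gene lists by role, against the mean of the other states. Counts are of list members that passed the low-count filter, to be set beside 6.05% higher and 3.19% lower among all genes, and, where a single state is named, beside 7.03% and 7.36% for the Pi16 state, 6.19% and 4.71% for the Cxcl14/Col15a1 state and 7.25% and 7.57% for the Postn state. Calls lost under an alternative are named at the end of each list, and nothing particular to a list is read from them. Of the 18 secreted modulators of BMP, WNT and IGF signalling that were tested, out of 25, 11 were higher and 0 lower, with a median log2 fold of 1.04. Beside Sfrp1, Sfrp2 and Sfrp4, the list holds genes that bind BMP, activin and IGF ligands. Fst, which encodes the activin-binding follistatin, had 168 and 115 CPM in Inmt/Penk cells, against 132 and 129 CPM in Pi16 cells and 7.85 to 18.2 CPM in the other 2 states. Igfbp3, an IGF-binding protein, had 395 and 222 CPM in Inmt/Penk cells and 17.1 to 93.8 CPM in the others (log2 fold 2.39, SE 0.203). Against the Pi16 state alone, the same list had 7 higher and 5 lower members with a median of 0.03, against the Cxcl14/Col15a1 state 14 and 1 with a median of 2.07, and against the Postn state 12 and 1 with a median of 1.43. Igfbp5 was among the genes with more in Pi16 cells, at 457 and 266 CPM in Inmt/Penk cells, against 3053 and 2055 CPM in Pi16 cells. After thinning, Sfrp4 was not called against the mean, and its log2 fold was 0.62, against 2.66 before.

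Of 28 growth factor genes tested, out of 34, 13 were higher and 2 lower, with a median log2 fold of 0.55. Fgf7, which encodes keratinocyte growth factor, a mitogen of thymic epithelium, had 98.0 and 78.2 CPM in Inmt/Penk cells, against 29.7 and 25.3 CPM in Pi16 cells, 26.4 and 22.8 CPM in Cxcl14/Col15a1 cells and 9.35 and 6.73 CPM in Postn cells (log2 fold 2.33, SE 0.18). Fgf10, a ligand of the same receptor, had 188 and 168 CPM in Inmt/Penk cells, against 20.2 and 71.9 CPM in Pi16 cells, 68.1 and 78.6 CPM in Cxcl14/Col15a1 cells and 33.0 and 49.4 CPM in Postn cells (log2 fold 1.95, SE 0.226). Igf1 had 573 and 555 CPM in Inmt/Penk cells and 162 to 362 CPM in the others (log2 fold 1.41, SE 0.138). Bmp4, a BMP ligand that takes part in thymus formation, had 237 and 316 CPM in Inmt/Penk cells and 54.1 to 164 CPM in the others (log2 fold 1.44, SE 0.13). In these 4 genes both Inmt/Penk sums lay above the 6 others, as in 6.28% of all genes tested. Wnt2 was sparse, at 10.5 and 14.9 CPM, with a log2 fold of 2.13 in the fit, 1.25 in library 1 and 2.12 in library 2, and it did not stand above Pi16 cells, at 13.2 and 13.7 CPM. Fgf1 was lower, at 16.6 and 18.6 CPM in Inmt/Penk cells and 22.6 to 96.8 CPM in the others, with -2.12 in the fit, -2.22 in library 1 and -1.45 in library 2. Bmp2, another BMP ligand, was the second lower gene, at 24.5 and 11.2 CPM in Inmt/Penk cells, against 17.1 and 13.0 CPM in Pi16 cells, 73.0 and 88.8 CPM in Cxcl14/Col15a1 cells and 43.4 and 70.7 CPM in Postn cells. Against the Pi16 state alone, 10 growth factor genes were higher and 7 lower, with a median of 0.27. These counts were 12 and 2 against the Cxcl14/Col15a1 state and 15 and 4 against the Postn state. The Fgf1 call was lost after thinning (-0.40) and without cells of mixed lineage (-0.69), and that of Wnt2 held in 5 of 8 alternatives.

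Genes of retinoic acid handling differed in both directions. Of 13 tested, out of 19, 4 were higher and 2 lower, with a median log2 fold of 0.82. Dhrs3, which turns retinal back to retinol, had 96.2 and 85.6 CPM in Inmt/Penk cells, against 34.7 and 38.3 CPM in Pi16 cells, 17.4 and 21.6 CPM in Cxcl14/Col15a1 cells and 13.7 and 16.8 CPM in Postn cells (log2 fold 2.10, SE 0.18). Adh1, an alcohol dehydrogenase that also acts on retinol, had 99.7 and 114 CPM in Inmt/Penk cells and 15.9 to 49.3 CPM in the others (log2 fold 1.90, SE 0.20). Aldh1a1, a retinal dehydrogenase, had 165 and 186 CPM in Inmt/Penk cells and 28.6 to 106 CPM in the others (log2 fold 1.68, SE 0.142). Rdh10, which makes retinal from retinol, was lower, at 13.1 and 14.9 CPM in Inmt/Penk cells, against 85.5 and 90.0 CPM in Cxcl14/Col15a1 cells and 90.2 and 93.1 CPM in Postn cells (log2 fold -1.96, SE 0.24). It did not differ by a call from Pi16 cells, at 19.9 and 20.5 CPM. Aldh1a3, also a retinal dehydrogenase, was called lower than in Pi16 cells and higher than in Cxcl14/Col15a1 and Postn cells, but not against the mean. Aldh1a2, a further retinal dehydrogenase, had 0.875 and 0 CPM in Inmt/Penk cells, against 47.8 and 11.6 CPM in Pi16 cells. The Aldh1a2 call against the mean held in 3 of 8 alternatives. Aldh1a2 is also expressed in mesothelium, whose markers were higher in Pi16 cells, and their part in it was not tested.

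Of 14 complement genes tested, out of 23, 8 were higher and 1 lower, with a median log2 fold of 0.41. Against the Pi16 state alone 8 were higher and 2 lower, with a median of 0.86. These counts were 5 and 1 against the Cxcl14/Col15a1 state, with a median of 0.18, and 6 and 4 against the Postn state, with a median of 0.27. C4b, the component cut by the lectin and classical pathways, had 217 and 203 CPM in Inmt/Penk cells, against 82.0 and 67.1 CPM in Pi16 cells, 22.9 and 13.7 CPM in Cxcl14/Col15a1 cells and 78.1 and 107 CPM in Postn cells (log2 fold 2.07, SE 0.16). Serping1, the C1 inhibitor, had 2165 and 2375 CPM in Inmt/Penk cells and 994 to 2115 CPM in the others (log2 fold 0.77, SE 0.10). For Masp1, C4b and Serping1 both Inmt/Penk values lay above all 6 others, which was so for 6.28% of all genes tested. C3, the central component, had 6361 and 4168 CPM in Inmt/Penk cells and 3696 to 5368 CPM in the others, and its log2 fold of 0.13 was not called. Clu, the secreted chaperone clusterin that also restrains complement, was lower, at 15.7 and 13.0 CPM in Inmt/Penk cells and 19.4 to 212 CPM in the others, with -2.49 in the fit, -2.61 in library 1 and -1.80 in library 2. Its call was lost after thinning (-1.87) and without cells of mixed lineage (-0.96).

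Of 23 genes of xenobiotic and steroid metabolism tested, out of 25, 14 were higher and 0 lower, with a median log2 fold of 0.79. Aox3, an aldehyde oxidase, had 96.2 and 57.7 CPM in Inmt/Penk cells, against 23.5 and 24.0 CPM in Pi16 cells, 9.03 and 3.42 CPM in Cxcl14/Col15a1 cells and 8.80 and 4.49 CPM in Postn cells (log2 fold 2.94, SE 0.23). Cyp4b1, a cytochrome P450, had 53.4 and 80.0 CPM in Inmt/Penk cells, against 2.33 and 3.42 CPM in Pi16 cells, 52.1 and 45.6 CPM in Cxcl14/Col15a1 cells and 23.1 and 32.5 CPM in Postn cells (log2 fold 2.06, SE 0.22). Fmo1, a relative of Fmo2, had 135 and 127 CPM, against 25.1 and 40.4 CPM in Pi16 cells, 109 and 93.4 CPM in Cxcl14/Col15a1 cells and 32.4 and 31.4 CPM in Postn cells (log2 fold 1.52, SE 0.16). Neither Cyp4b1 nor Fmo1 was called against the Cxcl14/Col15a1 state, with a log2 fold of 0.46 for each, and after thinning both lost their call against the mean.

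Penk is a peptide precursor, so genes that process or receive peptides were also followed. Only 17 of 31 passed the filter, of which 8 were higher and 1 lower, with a median log2 fold of 0.45. Against the Pi16 state alone, 4 were higher and 6 lower. Against the Cxcl14/Col15a1 state 9 were higher and 1 lower, and against the Postn state 8 and 4. The opioid receptor genes Oprd1, Oprm1 and Oprk1 had no UMI in Inmt/Penk cells, and the prohormone convertases Pcsk1 and Pcsk2 had none either. A count of 0 over both libraries allows a level of up to 1.79 CPM in Inmt/Penk cells. Pcsk5, a convertase of the constitutive route, had 65.6 and 48.4 CPM in Inmt/Penk cells, against 137 and 108 CPM in Pi16 cells and 3.42 to 7.64 CPM in the other states (log2 fold 1.98, SE 0.22). Ntrk2, the receptor of the neurotrophin BDNF, had 339 and 277 CPM in Inmt/Penk cells, against 166 and 238 CPM in Pi16 cells, 113 and 137 CPM in Cxcl14/Col15a1 cells and 28.0 and 32.5 CPM in Postn cells (log2 fold 1.82, SE 0.14). Cpz, a carboxypeptidase with a WNT-binding domain, had 34.1 and 11.2 CPM in Inmt/Penk cells and 0 to 19.2 CPM in the others, with 3.29 in the fit, 3.43 in library 1 and 1.14 in library 2. Adora2b, an adenosine receptor, was lower, at 4.37 and 1.86 CPM in Inmt/Penk cells and 8.90 to 30.3 CPM in the others (log2 fold -2.49, SE 0.56). The call of Adora2b was lost without cells of mixed lineage and that of Pcsk5 after thinning.

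Chemokines and cytokines differed in both directions. Of 25 tested, out of 27, 4 were higher and 5 lower, with a median log2 fold of -0.23. Against the Pi16 state alone 7 were higher and 5 lower, with a median of 0.28. These counts were 4 and 8 against the Cxcl14/Col15a1 state, with a median of -0.68, and 3 and 9 against the Postn state, with a median of -0.82. Ccl2, which draws in monocytes, had 10.5 and 3.72 CPM in Inmt/Penk cells, against 117 and 25.3 CPM in Pi16 cells, 54.9 and 45.6 CPM in Cxcl14/Col15a1 cells and 89.1 and 66.2 CPM in Postn cells (log2 fold -3.11, SE 0.45). Il34, a ligand of the macrophage receptor CSF1R, had 37.6 and 52.1 CPM in Inmt/Penk cells, against 47.8 and 32.9 CPM in Pi16 cells, 327 and 255 CPM in Cxcl14/Col15a1 cells and 289 and 287 CPM in Postn cells (log2 fold -1.83, SE 0.19). Csf1, the other ligand of that receptor, went the opposite way, at 207 and 182 CPM in Inmt/Penk cells and 77.4 to 155 CPM in the others (log2 fold 0.87, SE 0.126). Ccl19, a ligand of CCR7, had 90.1 and 106 CPM in Inmt/Penk cells, against 12.4 and 45.2 CPM in Pi16 cells, 628 and 510 CPM in Cxcl14/Col15a1 cells and 587 and 483 CPM in Postn cells. Its levels thus lay between those of the Pi16 state and of the other 2. The symbol Ccl19 stands on 2 rows of the deposited matrix, of which only the row that passed the filter was used. Il33, an alarmin, had 190 and 173 CPM in Inmt/Penk cells and 310 to 432 CPM in the others (log2 fold -0.97, SE 0.117). Cxcl5, a neutrophil chemokine, was sparse and higher, at 14 and 16.8 CPM in Inmt/Penk cells and 0 to 4.17 CPM in the others, with 2.86 in the fit, 2.36 in library 1 and 2.08 in library 2. The Ccl2 call was lost after thinning, and that of Ccl19 held in 6 of 10 alternatives.

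Each list of matrix genes had more higher than lower members against the mean. Of 19 elastic fibre genes tested, out of 20, 10 were higher and 2 lower, with a median log2 fold of 0.66, but against the Pi16 state alone 5 were higher and 6 lower with a median of -0.40. Mfap2, a microfibril protein, had 105 and 91.2 CPM in Inmt/Penk cells and 22.4 to 51.5 CPM in the others (log2 fold 1.60, SE 0.18). Mfap4, a fibrillin-binding protein, had 63.0 and 121 CPM in Inmt/Penk cells, against 61.04 and 273 CPM in Pi16 cells and 2.28 to 22.4 CPM in the other states (log2 fold 2.32, SE 0.29). Lox, which cross-links elastin and collagen, had 349 and 101 CPM in Inmt/Penk cells, with 1.84 in the fit, 2.30 in library 1 and 0.79 in library 2. Ltbp1, which binds latent TGF-beta, was lower, at 137 and 138 CPM in Inmt/Penk cells, against 155 and 154 CPM in Pi16 cells, 792 and 813 CPM in Cxcl14/Col15a1 cells and 862 and 955 CPM in Postn cells (log2 fold -1.79, SE 0.12). Fbn1, which encodes fibrillin, was lower most of all against the Pi16 state, at 307 and 289 CPM in Inmt/Penk cells, against 2254 and 1496 CPM in Pi16 cells and 432 to 495 CPM in the others. The Mfap4 call was lost without the block.

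Of 13 basement membrane genes tested, out of 18, 7 were higher and 1 lower, with a median log2 fold of 0.48. Smoc2, a calcium-binding matrix protein, had 1302 and 1020 CPM in Inmt/Penk cells, against 449 and 541 CPM in Pi16 cells, 360 and 260 CPM in Cxcl14/Col15a1 cells and 97.9 and 80.8 CPM in Postn cells (log2 fold 2.29, SE 0.11). Lamb2, a laminin chain, had 290 and 300 CPM in Inmt/Penk cells and 63.9 to 218 CPM in the others (log2 fold 1.52, SE 0.13). Nid2, which links laminin and collagen IV, had 179 and 158 CPM in Inmt/Penk cells and 32.1 to 116 CPM in the others (log2 fold 1.46, SE 0.14). Lama2, a laminin chain typical of mesenchyme, had 446 and 387 CPM in Inmt/Penk cells and 196 to 370 CPM in the others (log2 fold 0.66, SE 0.11). Lamb1 was the lower gene, at 220 and 255 CPM in Inmt/Penk cells, against 240 and 264 CPM in Pi16 cells and 338 to 447 CPM in the other states (log2 fold -0.54, SE 0.118). The Lama2 call was lost after thinning and with the collagen gate at 50.

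Outside the collagens of the gate, 20 of 25 collagen genes were tested, and 4 were higher and 1 lower, with a median log2 fold of 0.18. Beside Col14a1, the higher ones were Col12a1, Col4a4 and Col8a2. Col8a2 was sparse, with 2.97 in the fit, 1.81 in library 1 and 3.04 in library 2. Col18a1, the source of endostatin, was lower, at 27.1 and 27.9 CPM in Inmt/Penk cells and 35.2 to 170 CPM in the others (log2 fold -1.70, SE 0.24). Of 24 small proteoglycans and matrix glycoproteins tested, out of 26, 12 were higher and 3 lower, with a median log2 fold of 0.30. Dcn, decorin, had 19820 and 18942 CPM in Inmt/Penk cells and 7762 to 15752 CPM in the others (log2 fold 0.72, SE 0.0753). Omd, osteomodulin, had 44.6 and 65.1 CPM in Inmt/Penk cells, against 40.1 and 49.97 CPM in Pi16 cells and 3.42 to 10.4 CPM in the other states. Has2, a hyaluronan synthase, was lower, at 11.4 and 18.6 CPM in Inmt/Penk cells and 36.3 to 133 CPM in the others, with -2.45 in the fit, -2.70 in library 1 and -1.77 in library 2. Fn1, fibronectin, had 213 and 151 CPM in Inmt/Penk cells, against 6918 and 2084 CPM in Pi16 cells and 31.9 to 175 CPM in the other states, which the Inmt/Penk values overlapped. Aspn, asporin, was the third lower gene, at 66.5 and 80.0 CPM in Inmt/Penk cells, against 381 and 528 CPM in Pi16 cells and 44.4 to 95.1 CPM in the other states. Against the Pi16 state alone, 4 collagens were higher and 3 lower, with a median of -0.11. Against the Cxcl14/Col15a1 state these counts were 7 and 4, and against the Postn state 5 and 4. For the proteoglycans and glycoproteins they were 11 and 10 against the Pi16 state, with a median of 0.16. Against the other states they were 12 and 2, and 11 and 5. After thinning, Col12a1 and Col18a1 lost their calls, Col18a1 with a log2 fold of -0.62. Omd lost its call without cells of mixed lineage, at 1.19, against 2.08 before.

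Among transcription factors of fibroblasts, 35 of 45 were tested, and 10 were higher and 1 lower, with a median log2 fold of 0.37. Meox2, a homeobox factor of mesenchyme, had 52.5 and 94.9 CPM in Inmt/Penk cells, against 8.28 and 17.1 CPM in Pi16 cells, 43.1 and 46.7 CPM in Cxcl14/Col15a1 cells and 40.7 and 46.0 CPM in Postn cells (log2 fold 1.31, SE 0.20). Prrx2, a paired-type homeobox factor of mesenchyme, had 71.7 and 54.0 CPM in Inmt/Penk cells and 12.3 to 47.2 CPM in the others (log2 fold 1.36, SE 0.19). Wt1, which is high in mesothelium, had 43.7 and 20.5 CPM in Inmt/Penk cells, against 88.2 and 96.5 CPM in Pi16 cells and 1.14 to 13.5 CPM in the other states, with 1.53 in the fit, 1.55 in library 1 and 0.51 in library 2. Sox9, a factor of cartilage, had 40.2 and 29.8 CPM in Inmt/Penk cells, with 1.09 in the fit, 1.39 in library 1 and 0.37 in library 2, and overlapped the Postn state at 19.8 and 38.1 CPM. Nr2f1 was lower, at 35.0 and 52.1 CPM in Inmt/Penk cells, against 17.1 and 23.3 CPM in Pi16 cells, 86.9 and 131 CPM in Cxcl14/Col15a1 cells and 196 and 267 CPM in Postn cells (log2 fold -0.87, SE 0.174). Twist1 and Tcf21, factors that bind E-boxes, had 146 and 158 CPM and 22.7 and 18.6 CPM in Inmt/Penk cells, and neither was called against the mean. After thinning Wt1, Prrx2 (0.75) and Meox2 (0.59) were not called, nor was Meox2 without cells of mixed lineage (0.47), and the Sox9 call held in 3 of 8 alternatives.

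The lists of dissociation stress, division and interferon response had medians below 0 against the mean. Against the Cxcl14/Col15a1 state alone the medians were 0.53 for division and 0.05 for interferon response. Of 18 genes induced by tissue dissociation, 0 were higher and 7 lower, with a median log2 fold of -0.35. Against the Pi16 state alone 2 were higher and 5 lower, against the Cxcl14/Col15a1 state 3 and 7, and against the Postn state 1 and 9. Hspa1a, a heat shock chaperone, had 385 and 402 CPM in Inmt/Penk cells, against 216 and 335 CPM in Pi16 cells, 1222 and 1207 CPM in Cxcl14/Col15a1 cells and 1154 and 1255 CPM in Postn cells (log2 fold -0.88, SE 0.12). Ier3, an early response gene, had a log2 fold of -0.88 (SE 0.17), Klf6 of -0.87 (SE 0.12) and Btg2 of -0.54 (SE 0.12), whereas Fos at 0.10 and Egr1 at -0.13 were not called. Of 16 genes of G2 and mitosis tested, out of 20, 0 were higher and 1 lower against the mean, with 10 lower against the Pi16 state, 0 against the Cxcl14/Col15a1 state and 3 against the Postn state. Cenpf, a centromere protein, had 9.62 and 9.31 CPM in Inmt/Penk cells, against 62.6 and 30.8 CPM in Pi16 cells, 7.64 and 25.1 CPM in Cxcl14/Col15a1 cells and 53.3 and 23.6 CPM in Postn cells (log2 fold -1.73, SE 0.48). Of 22 interferon response genes tested, out of 23, 1 was higher and 5 lower, with a median log2 fold of -0.17. Against the Pi16 state alone 3 were higher and 4 lower, against the Cxcl14/Col15a1 state 6 and 4, and against the Postn state 0 and 10. Ly6e had 442 and 627 CPM in Inmt/Penk cells, against 392 and 581 CPM in Pi16 cells, 1219 and 1622 CPM in Cxcl14/Col15a1 cells and 1381 and 1498 CPM in Postn cells (log2 fold -0.90, SE 0.10). B2m, the light chain of MHC class I, had 1317 and 1448 CPM in Inmt/Penk cells and 1103 to 3827 CPM in the others (log2 fold -0.68, SE 0.09). Psmb8, an immunoproteasome subunit, had a log2 fold of -0.80 (SE 0.13) and Tap1, a peptide transporter, of -0.84 (SE 0.25), while Ifitm2 was the higher gene at 0.46. Calls held in 3 of 10 alternatives for Tap1, 4 of 9 for Cenpf, 7 of 10 for Ier3 and 8 of 10 for Btg2, and the Psmb8 call was lost after thinning.

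**Figure D5:**
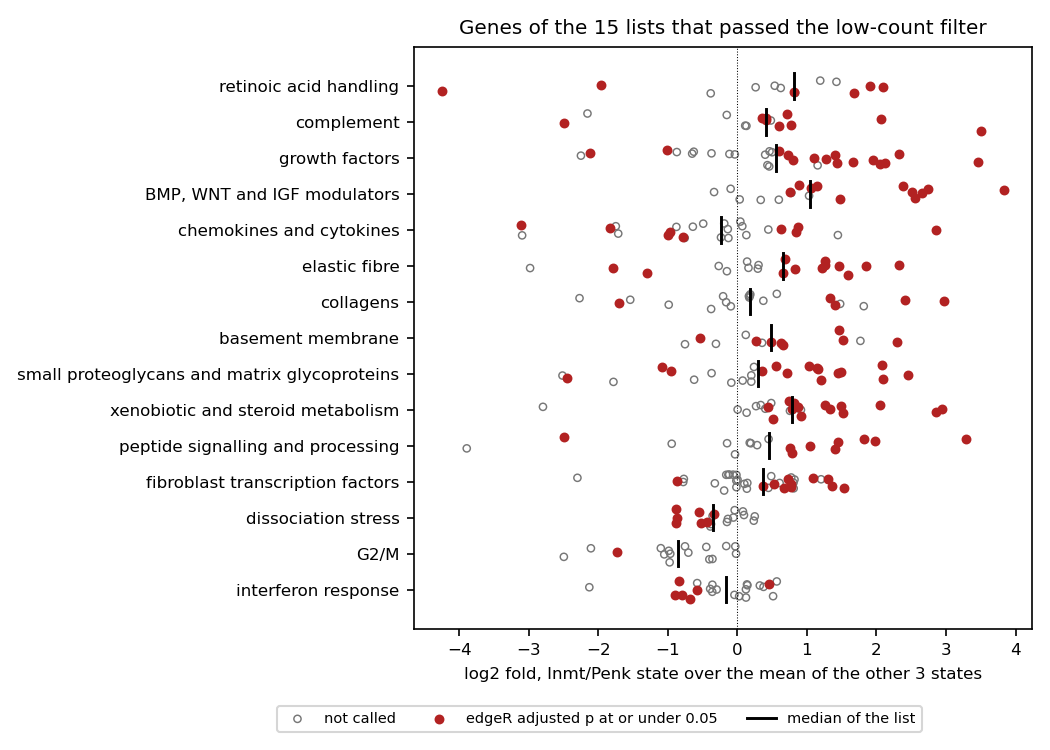
Log2 fold of the Inmt/Penk state over the mean of the other 3 states (horizontal axis) for each gene of the 15 lists that passed the low-count filter, with filled points for called genes, open points for the others and a vertical bar for the median of each list. The bar lies furthest right for the BMP, WNT and IGF modulators, at 1.04, and furthest left for the G2/M list, at -0.86.

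Among the members themselves, expression was thinned to 2000 UMIs per cell, which 148 and 82 cells reached, and genes were ranked by the ratio of variance to mean. Over 4405 genes with a mean above 0.05 UMIs in both libraries the median ratio was 1.03 and 1.01, close to pure counting. Gm42418, a predicted gene that overlaps a ribosomal RNA repeat, had ratios of 69.6 in library 1 and 48.8 in library 2, and the nuclear noncoding RNA Malat1 had 23.0 and 33.4. Of the secreted products, Cxcl13, a B cell chemokine, had ratios of 24.3 and 10.5 and a mean of 0.642 and 0.171 UMIs per cell. It was found in 8.11% and 2.44% of the thinned cells, with up to 35 and 12 UMIs in a cell, so its ratio in library 2 rests on very few cells. Its summed level in all members was 387 and 171 CPM, and in Postn cells it was 90.7 and 632 CPM. Mgp, an inhibitor of calcification, had ratios of 8.19 and 8.46, Ptn, a heparin-binding growth factor, 7.94 and 8.60, and Apod, a lipocalin, 7.70 and 8.93. Apoe, C3, Gsn and Dcn followed, with ratios between 5.73 and 8.84. The immediate early genes Fos and Egr1 were at 4.53 to 6.11. At equal relative variation this ratio grows with the mean, so the ranking favours abundant genes. Dcn, at a mean of 39.4 and 37.0 UMIs, and Gsn, at 36.0 and 29.5 UMIs, were found in 100% of the thinned cells. The ratios thus show variation beyond counting at equal depth, and do not rank how uneven the genes were.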

How the data were processed

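Thymic stroma of E2F_M11 mice was sequenced in 2 droplet libraries. The files the authors deposited hold raw UMI counts without normalisation. Cell Ranger 6.0.0 made them, per the file headers, while Cell Ranger 7, Seurat 4 and mm10 stand in the submitters' processing notes. How barcodes were filtered before deposit is not given in the sources used here. Members and gene lists were chosen with earlier results of these data known. Cells were filtered and sorted as the report describes, without a doublet caller, so doublets were not removed. Counts were summed per library and state (8 sums) and fitted with edgeR 4.0.16 in R 4.3.3 (TMM scaling, filterByExpr, library as a block because each library holds every state), which left 3 residual degrees of freedom over 10540 genes. The p-values measure only how far differences between states varied between the 2 libraries after the block, a variation that may be technical. SE was taken as log2 fold over the square root of F, and values within a library are differences of TMM log2 CPM with a prior count of 2. The script was tested on simulated data. Named against the mean are the 12 higher and 12 lower called genes with the largest smallest pairwise log2 fold, the same sign in both libraries and against each state, and at least 20 UMIs in each library on the higher side; the 4 with the largest fold in each direction per pair, passing over genes already named, and up to 4 called members per list (largest fold) follow, and other list members and Igfbp5, C3, Twist1 and Tcf21 were named after their values were seen. Alternatives were DESeq2 1.42.0, RLE scaling, no block, no low-count filter, other thresholds of the rule, thinning, stricter cell filters and the removal of mixed cells as defined above.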

Additional observations from a re-analysis of the deposited data

How the results depend on the processing

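The counts of called genes changed in size with some settings. Against the mean of the other states, where 972 genes were called, 594 were called with no replicate block, 503 with DESeq2, 228 after thinning to 2000 UMIs, which tested 5337 genes, and 437 without cells of mixed lineage, which tested 6820. Against the Pi16 state (1513) the same 4 settings gave 955, 773, 507 and 621. Against the Cxcl14/Col15a1 state (1146) they gave 711, 621, 327 and 564, and a collagen gate at 50 per 10000 gave 713. Against the Postn state (1559) DESeq2 gave 850, thinning 449 and the removal of mixed cells 664. Calls without the block are a check of the pairing of states within a library, which follows from the design. The higher share of calls against the mean was 65.4%, against 77.2% after thinning and 77.6% without mixed cells. RLE scaling left it at 65.1%. The share of Inmt/Penk cells in library 1 (13.9%) was 10.2% with at least 4 genes, 7.10% after thinning and 17.8% with the collagen gate at 50. In library 2 (6.0%) it was 3.85% with at least 4 genes, 7.89% with at least 2, 10.4% with stricter cell filters, 8.60% with the collagen gate at 50 and 12.9% without mixed cells. Except where thinning or a smaller number of genes tested enters by construction, the cause was not tested. No log2 fold of a named gene turned its sign under any alternative run. Of 101 such results, 59 stayed called under each alternative that tested them. Calls were lost for 10 of 101 without the block, 15 of 101 with DESeq2, 24 of 70 after thinning, 12 of 99 with the collagen gate at 50 and 11 of 78 without mixed cells. With 1 library left out no test remains, and where a printed fold then moved by over 1.5 times the values of both libraries stand beside it in the report.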

Other observations

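Further members of the same lists, named after their values were seen, add to the profile of the Inmt/Penk cells. Gas6, a ligand of TAM receptors, had 493 and 253 CPM in Inmt/Penk cells and 69.8 to 158 CPM in the other states. Rspo3, which strengthens WNT signals, had 57.7 and 52.1 CPM in Inmt/Penk cells, against 14 and 28.1 CPM in Pi16 cells, 49.3 and 39.9 CPM in Cxcl14/Col15a1 cells and 17.0 and 10.1 CPM in Postn cells. Of the lymphatic growth factors, Vegfc had 35.0 and 44.7 CPM in Inmt/Penk cells, against 8.02 and 9.58 CPM in Pi16 cells, while Vegfd had 35.0 and 37.2 CPM, against 65.4 and 82.8 CPM in Pi16 cells and 1.12 to 3.47 CPM in the other states. Adm, which encodes the vasodilator adrenomedullin, had 57.7 and 76.3 CPM in Inmt/Penk cells and 12.5 to 45.8 CPM in the others. Ednra, an endothelin receptor, had 57.7 and 52.1 CPM in Inmt/Penk cells, against 2.59 and 2.74 CPM in Pi16 cells, 153 and 125 CPM in Cxcl14/Col15a1 cells and 103 and 87.5 CPM in Postn cells. Npr1, a natriuretic peptide receptor, ran the other way, with 40.2 and 42.8 CPM in Inmt/Penk cells, against 85.1 and 86.3 CPM in Pi16 cells and 3.42 to 9.35 CPM in the other states.

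Among matrix genes, Spon1 had 443 and 395 CPM in Inmt/Penk cells, against 12.4 and 55.4 CPM in Pi16 cells, 577 and 646 CPM in Cxcl14/Col15a1 cells and 546 and 538 CPM in Postn cells. Tnxb, a tenascin, had 368 and 380 CPM in Inmt/Penk cells, against 499 and 709 CPM in Pi16 cells, 90.3 and 93.4 CPM in Cxcl14/Col15a1 cells and 42.3 and 47.1 CPM in Postn cells. Matn2, a matrilin, had 175 and 214 CPM in Inmt/Penk cells, against 29.7 and 17.1 CPM in Pi16 cells and 109 to 125 CPM in the other states. Nr2f2, a nuclear receptor of veins and mesenchyme, had 238 and 223 CPM in Inmt/Penk cells, against 39.8 and 37.0 CPM in Pi16 cells, 234 and 268 CPM in Cxcl14/Col15a1 cells and 310 and 351 CPM in Postn cells. The Inmt/Penk values thus lay nearer the Pi16 state for Tnxb and nearer the other states for Spon1 and Nr2f2.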
